A study of Mus musculus with 3 samples.

Results

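The aldehyde dehydrogenase genes described here are 10 enzymes of aldehyde oxidation chosen by name, with earlier results of these data known. A probe set was used where the platform annotation gave it the symbol of 1 gene only. They are Aldh1a1, Aldh1b1, Aldh2, Aldh3a2, Aldh4a1, Aldh6a1, Aldh7a1, Aldh8a1, Aldh9a1 and Aldh16a1. They were 10 of the 18193 genes with a single-gene probe set on the array, and they were read by 19 of its 45101 probe sets. Where a gene had several probe sets, the one with the highest mean over the 3 arrays stood for it. At that probe set all 10 lay above the filter on dim genes in every liver.

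Aldehyde dehydrogenases oxidise aldehydes to carboxylic acids, with NAD+ or NADP+ as the electron acceptor. In liver they clear acetaldehyde made from ethanol and aldehydes from lipid peroxidation, and they complete steps in the breakdown of tryptophan, lysine, proline, valine and choline derivatives. Some members also make retinoic acid from retinal.

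The study compared the liver of 1 mouse given Cre virus with the livers of 2 mice given control virus. The Cre virus was MUP-iCre-AAV8, an adeno-associated virus of serotype 8 with the iCre recombinase, and the control virus was MUP-EGFP-AAV8, with EGFP in its place. All mice were 3 months old, of mixed strain, and received 1 intraperitoneal dose of 400 microL a week before the liver was taken. The sources differ on genotype. The sample labels name the Cre liver an HNF4alpha knockout and the control livers wild type, while the series design speaks of floxed HNF4alpha mice for either virus, so virus and genotype cannot be told apart here. The MUP in the virus names is not spelled out in the labels. HNF4alpha is a nuclear receptor that many hepatocyte genes depend on, and the comparison asks which liver transcripts differ once its gene has been targeted in the adult.

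Values are log2 expression, so that a difference of 1 is a 2-fold change, and differences are Cre minus the control mean. A gene fell or rose where its limma p, adjusted over 12735 fitted genes, was under 0.05. The test combines the spread of each gene between the 2 controls with that of other genes of like level. It assumes that the lone Cre liver varies as the controls do. The only spread between mice that it measures is that between the 2 controls. Each Cre value rests on 1 mouse.

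The arrays were close in distribution, with a median log2 expression of 4.16 in the Cre liver and 4.18 and 4.15 in the control livers. Hnf4a itself, at its brightest probe set, was at 11.38 in the Cre liver and at 11.91 and 11.96 in the control livers (-0.55 on the log2 scale, adjusted p = 0.0401 over genes and 0.0644 over probe sets, where it did not pass). All 4 Hnf4a probe sets were below both controls, down to -1.18 at 1421983_s_at, and where they lie relative to the floxed part was not used here. Albumin (Alb) was at 14.62 in the Cre liver and at 14.75 and 14.72 in the control livers. All 8 hepatocyte markers examined were above the filter in each liver. Of the 8, 3 fell (Apoa2, Tat and Ass1), against 5.21% of all fitted genes. The summed log2 level of the 8 was 104.6 in the Cre liver and 107.9 and 108.0 in the control livers. Of 7 Kupffer cell markers, 6 were above both controls, against 49.7% of all fitted genes. Among them 1, Marco, rose, against 6.71%. Their summed log2 level was 51.1 in the Cre liver and 44.7 and 47.6 in the control livers. The Cre liver was also above both controls in 7 of 8 stellate cell markers and 5 of 6 endothelial markers, and none of these passed. The summed levels of 8 stellate cell markers (57.6 in the Cre liver, 55.2 and 56.1 in the control livers) and of 6 endothelial markers (42.4 in the Cre liver, 40.4 and 41.0 in the control livers) differed less. Of 5 measured cholangiocyte markers, Sox9 rose, at 6.69 in the Cre liver and at 3.87 and 4.82 in the control livers (adjusted p = 0.0452), while Krt7 and Cftr were below the filter value in every liver. Epcam was at 4.58 in the Cre liver and at 4.28 and 4.32 in the control livers and did not pass. Krt19 was below both controls, at 3.59 in the Cre liver and at 3.72 and 3.79 in the control livers. The summed log2 level of the 5 cholangiocyte markers was 20.3 in the Cre liver and 17.5 and 17.9 in the control livers. Alas2, listed as a red cell precursor marker, fell, at 5.49 in the Cre liver and at 8.61 and 8.92 in the control livers (adjusted p = 0.00339), while Hba-a1 of that list was below the filter value in every liver. Cela1, 1 of 3 measured pancreas markers, fell too, at 8.23 in the Cre liver and at 9.92 and 9.55 in the control livers (adjusted p = 0.0217). Of the other pancreas markers, Prss2 was above both controls, at 4.82 in the Cre liver and at 4.79 and 4.43 in the control livers. Cpa1 was below the filter value in every liver. Summed log2 levels of the 2 red cell markers were 8.19 in the Cre liver and 11.2 and 11.7 in the control livers. Those of the pancreas markers were 15.9 in the Cre liver and 17.7 and 16.8 in the control livers. No value on this scale is a true zero, and the part of other cell types in the results below was not tested.

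The promoters of the genes that fell most are shown because HNF4alpha acts through binding sites near target genes. With them is the Aldh1a1 promoter that held matches, of a member that stayed between its controls. Each is a RefSeq sequence of the GRCm38.p6 build, from 250 bases before to 50 bases after the start in the promoter table, written 5′ to 3′ along the gene. Capitals mark matches to CAAAGTCCA, a motif known for HNF4alpha, with at most 1 mismatch on either strand.
Aldh8a1 promoter, chr10:21377050-21377349, plus strand: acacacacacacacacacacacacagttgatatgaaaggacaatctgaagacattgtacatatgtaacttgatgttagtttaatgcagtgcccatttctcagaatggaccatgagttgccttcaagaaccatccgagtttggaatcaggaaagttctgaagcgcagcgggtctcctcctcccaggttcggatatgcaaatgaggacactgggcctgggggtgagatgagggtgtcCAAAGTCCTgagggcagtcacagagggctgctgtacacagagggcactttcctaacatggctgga
Aldh1a1 promoter, chr19:20492333-20492632, plus strand: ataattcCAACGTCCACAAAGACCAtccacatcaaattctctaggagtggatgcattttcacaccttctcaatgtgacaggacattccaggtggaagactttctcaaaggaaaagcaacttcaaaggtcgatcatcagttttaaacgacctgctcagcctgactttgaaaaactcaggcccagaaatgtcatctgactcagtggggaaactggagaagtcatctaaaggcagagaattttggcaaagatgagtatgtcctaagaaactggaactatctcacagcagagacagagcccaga
Aldh16a1 promoter, chr7:45154487-45154786, minus strand: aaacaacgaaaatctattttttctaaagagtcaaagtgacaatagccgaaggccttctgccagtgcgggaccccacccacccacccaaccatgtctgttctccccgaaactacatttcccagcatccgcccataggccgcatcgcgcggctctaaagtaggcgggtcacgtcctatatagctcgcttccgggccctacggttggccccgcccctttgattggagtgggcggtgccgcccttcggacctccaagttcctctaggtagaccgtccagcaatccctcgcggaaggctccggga
Aldh1b1 promoter, chr4:45798772-45799071, plus strand: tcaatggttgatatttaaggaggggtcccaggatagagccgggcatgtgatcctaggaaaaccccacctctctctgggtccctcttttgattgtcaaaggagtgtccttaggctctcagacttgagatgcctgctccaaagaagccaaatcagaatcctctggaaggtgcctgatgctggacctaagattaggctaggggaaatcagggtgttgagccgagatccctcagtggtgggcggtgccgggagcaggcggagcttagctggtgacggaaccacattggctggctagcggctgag

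No promoter of the 8 members in the table, which has 10 windows for them, held CAAAGTCCA exactly, and none held CAAAGGTCA, a related nuclear receptor motif. Of all 32851 promoters in the table, 0.475% held the first and 0.478% the second, on either strand. A setting with 1 mismatch to CAAAGTCCA allowed was added after no exact match was seen. In it 2 of the 10 windows had a match, against 8.47% of all promoters. CAAAGGTCA was searched for exact matches only, so near matches to it are neither counted nor marked. In Aldh8a1 the match was CAAAGTCCT, beginning 15 bases before the start. In Aldh1a1 there were 2 adjoining matches, CAACGTCCA and CAAAGACCA, beginning 243 and 234 bases before the start. The table has a second Aldh1a1 window, not shown, which held no match. Which Aldh1a1 window serves the liver transcript was not tested. The windows of Aldh3a2, Aldh4a1 and Aldh9a1, which also stayed between their controls, held no match and are not shown either. Aldh16a1 and Aldh1b1 had none. The windows also differed in composition, with 4 CpG in Aldh8a1, 3 in this Aldh1a1 window, 22 in Aldh16a1 and 7 in Aldh1b1. A match of letters is a description and not a binding site, and these windows leave out everything farther away.

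Of the 10 aldehyde dehydrogenase genes, 4 fell in the Cre liver and none rose. Among all fitted genes 5.21% fell and 6.71% rose. By size alone, 3 of the 10 were at least 2-fold below both controls, against 3.72% of all fitted genes, and none was at least 2-fold above both, against 3.67%. The Cre liver was below both controls in 6 of the 10, against 33.6% of all fitted genes, and above both in none, against 49.7%. The median difference was -0.32 over the 10 genes and 0.09 over all fitted genes. In bulk tissue, fewer cells of a type and less RNA per cell cannot be told apart.

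**Figure D1:**
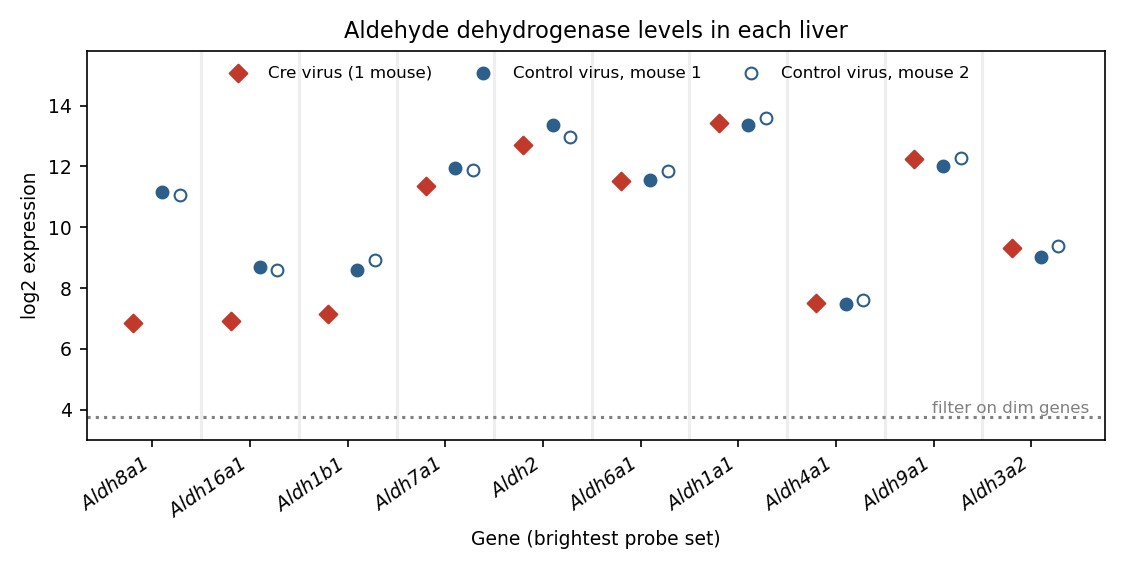
Log2 expression of the 10 aldehyde dehydrogenase genes, each at its brightest probe set, in the Cre liver (diamonds, left) and the 2 control livers (circles), ordered by the difference. Aldh8a1 stands at 6.86 in the Cre liver and at 11.15 and 11.05 in the control livers, while Aldh1a1, Aldh4a1, Aldh9a1 and Aldh3a2 lie between their controls; levels of different genes are read by different probes and are not comparable.

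Aldh8a1 had the largest difference of the 10. It encodes a cytosolic enzyme first described as a retinal dehydrogenase and later as the 2-aminomuconic semialdehyde dehydrogenase of tryptophan breakdown. Its level was 6.86 in the Cre liver and 11.15 and 11.05 in the control livers. The Cre liver was far outside the controls, which differed from each other by 0.10. The difference was -4.24 ± 0.12 (SE; adjusted p = 0.00107), an 18.9-fold fall that left 5.29% of the control level. Among all fitted genes it was the 51st largest fall. The second probe set, 1427336_at, gave 5.55 in the Cre liver and 9.81 and 9.49 in the control livers, a 17.1-fold fall (adjusted p = 0.00585 over 31526 probe sets). Both probe sets read a fall of similar size, and both stayed above the filter value of 3.77 in the Cre liver.

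The 5 named genes nearest to Aldh8a1 over the 3 arrays, by Euclidean distance after each gene's control mean was subtracted, were Cideb, Hrg, Enpp3, Prodh2 and Gchfr. Their differences were -4.21 for Cideb, -4.27 for Hrg, -4.17 for Enpp3, -4.36 for Prodh2 and -4.32 for Gchfr. Distances ran from 0.0415 for Cideb to 0.149 for Gchfr. With 3 arrays this likeness says only that these genes fell by a like amount. Prodh2, a hydroxyproline dehydrogenase, is also in the proline list below.

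Aldh16a1 encodes an unusual family member whose human protein lacks the catalytic cysteine of the active enzymes. It was at 6.94 in the Cre liver and at 8.69 and 8.60 in the control livers. The Cre value lay well below both controls, and the fall was 3.27-fold (-1.71 ± 0.13 SE, adjusted p = 0.00772). Its second probe set, 1447372_at, was at 6.14 in the Cre liver and at 7.83 and 7.80 in the control livers. That is a 3.19-fold fall (adjusted p = 0.0194 over all probe sets), so the probe sets of this gene read alike too.

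Aldh1b1, Aldh2, Aldh6a1 and Aldh4a1, which encode mitochondrial enzymes, did not move together. Aldh1b1, which oxidises acetaldehyde and other short aldehydes and retinal, was at 7.15 in the Cre liver and at 8.60 and 8.91 in the control livers. The controls differed by 0.31, and the Cre liver was at -1.45 relative to the lower of them. The fall was 3.04-fold (-1.61 ± 0.18 SE, adjusted p = 0.0170), and 1 probe set read this gene.

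Aldh2, the main mitochondrial acetaldehyde dehydrogenase, was at 12.69 in the Cre liver and at 13.34 and 12.97 in the control livers. The Cre liver was below both, but the controls lay 0.38 apart, and the difference of -0.46 ± 0.18 (SE; 95% interval -0.95 to 0.03) did not pass (adjusted p = 0.178). All 5 Aldh2 probe sets had a negative difference, from -0.26 for 1437410_at to -0.72 for 1457155_at, and none passed. On 1437410_at the Cre value of 8.36 lay between the control values of 8.90 and 8.35.

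Aldh6a1, which turns methylmalonate semialdehyde into propionyl-CoA in valine and thymine breakdown, was at 11.51 in the Cre liver and at 11.55 and 11.85 in the control livers. Its difference of -0.19 (95% interval -0.62 to 0.25) did not pass (adjusted p = 0.473), and the Cre value was at -0.04 relative to the first control. Aldh4a1, which makes glutamate from the proline breakdown product, was at 7.52 in the Cre liver and at 7.49 and 7.60 in the control livers. The Cre value lay between the controls, with a difference of -0.03 (95% interval -0.42 to 0.36). Of Aldh1b1, Aldh2, Aldh6a1 and Aldh4a1, Aldh1b1 was therefore the one that fell.

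**Figure D2:**
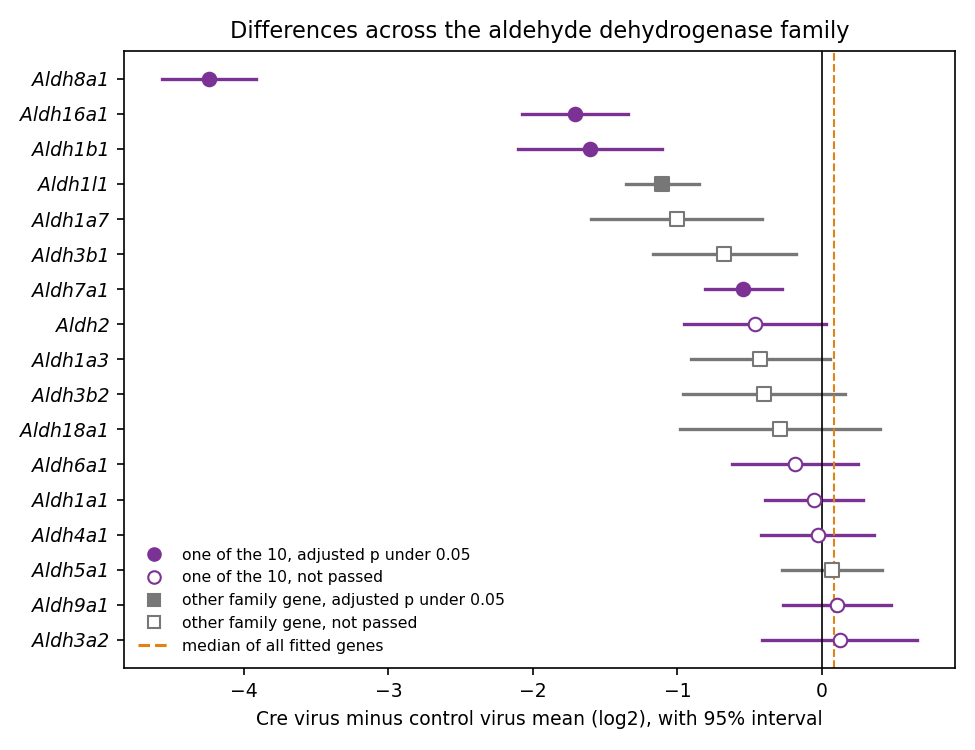
Cre minus control mean (log2) with limma's 95% interval for the 10 genes (purple circles) and 7 other fitted family genes (grey squares), largest fall at the top, filled where the adjusted p was under 0.05, with a dashed line at the median of all fitted genes (0.09). Aldh8a1 (-4.24), Aldh16a1 (-1.71) and Aldh1b1 (-1.61) lead, Aldh1l1 (-1.11) and Aldh7a1 (-0.55) also passed, and no interval lies wholly above 0.

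Aldh7a1, known as antiquitin, oxidises alpha-aminoadipic semialdehyde in lysine breakdown. It was at 11.37 in the Cre liver and at 11.95 and 11.88 in the control livers. The controls were close and the Cre liver was below both, giving a small fall of 1.46-fold (-0.55 ± 0.10 SE, adjusted p = 0.0431). This call was narrow, and the adjusted p was 0.0137 to 0.113 over 9 other settings, of which 4 lost the call. The other probe sets of Aldh7a1 were much dimmer, and both had the Cre liver below the controls without passing. Probe set 1448137_at was at 4.27 in the Cre liver and at 4.38 and 4.74 in the control livers, and 1415902_at at 3.46 in the Cre liver and at 3.99 and 3.88 in the control livers.

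Aldh1a1, a cytosolic enzyme that makes retinoic acid from retinal, was at 13.41 in the Cre liver and at 13.36 and 13.58 in the control livers. The Cre value lay between the controls, and the difference was -0.06 (95% interval -0.40 to 0.28, adjusted p = 0.782). Its direction depended on the control used, with 0.05 against the first control and -0.17 against the second. These levels are high on a scale whose highest value was 15.05, and saturation of the probes was not recorded in the values used here.

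Aldh9a1 oxidises trimethylaminobutyraldehyde, a step of carnitine synthesis. It was at 12.25 in the Cre liver and at 12.02 and 12.27 in the control livers, between the controls, with a difference of 0.10 (95% interval -0.27 to 0.48). Its second probe set, 1437398_a_at, was at 10.85 in the Cre liver and at 10.71 and 10.77 in the control livers, just above both (0.11, adjusted p = 0.58). Aldh3a2, the fatty aldehyde dehydrogenase of the endoplasmic reticulum, was at 9.33 in the Cre liver and at 9.02 and 9.40 in the control livers. It too lay between the controls, with a difference of 0.12 (95% interval -0.41 to 0.66). The intervals of Aldh1a1, Aldh3a2, Aldh4a1 and Aldh9a1 leave out a fall as large as that of Aldh7a1, whereas those of Aldh6a1 and Aldh2 do not.

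**Figure D3:**
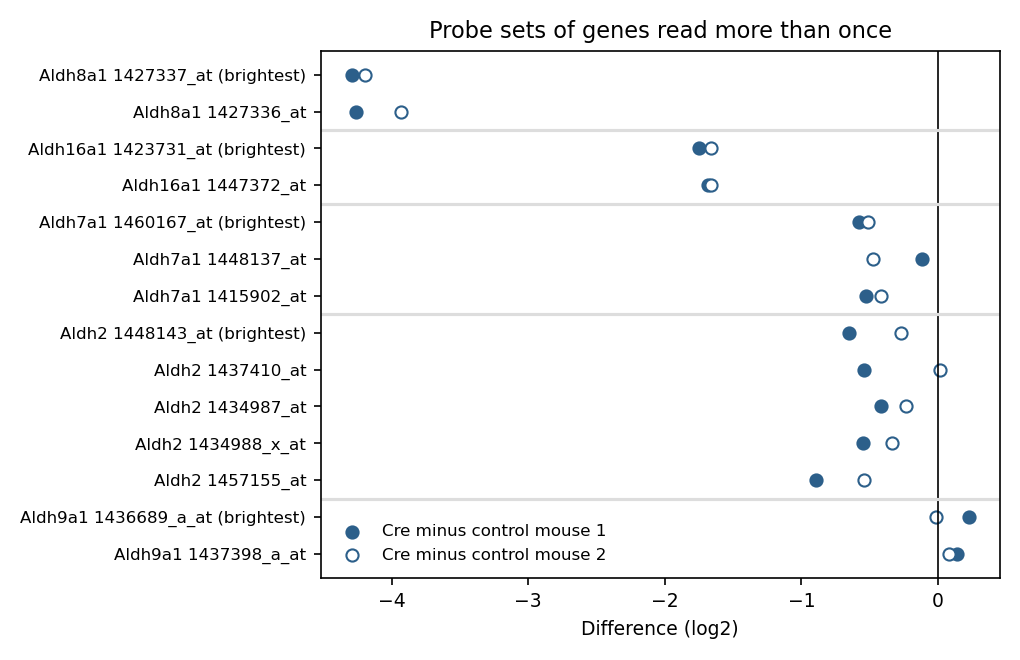
Cre minus each control (log2; filled, control mouse 1; open, control mouse 2) for every probe set of the 5 genes read more than once. Both Aldh8a1 probe sets lie between -4.29 and -3.93 and both Aldh16a1 probe sets between -1.75 and -1.66, while Aldh9a1 lies around 0.

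Of all 19 probe sets of the 10 genes, 5 fell when every probe set was fitted by itself, against 2.35% of the 31526 probe sets fitted, and none rose, against 1.94%. They were both of Aldh8a1, both of Aldh16a1 and the one of Aldh1b1. The brightest probe set of Aldh7a1 did not pass on that scale (adjusted p = 0.0680).

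Of 11 other family genes looked for, 7 were fitted, and their median difference was -0.43. Of the 7, 1 fell and none rose, against 5.21% and 6.71% of all fitted genes. The Cre liver was below both controls in 6 of the 7, against 33.6% of all fitted genes. Of these, Aldh3b1, Aldh1a3, Aldh3b2 and Aldh18a1 were dim. Their Cre levels ran from 3.73 (Aldh1a3) to 4.18 (Aldh3b1), near the filter value of 3.77, and the median was that of Aldh1a3. The other, dimmer probe sets of Aldh1a3 and Aldh18a1 lay between or above the controls, while that of Aldh1l1 was below both. Aldh1l1, the cytosolic 10-formyltetrahydrofolate dehydrogenase, was at 11.58 in the Cre liver and at 12.66 and 12.71 in the control livers, a 2.15-fold fall (-1.11 ± 0.09 SE, adjusted p = 0.00881). Aldh1a7, a rodent gene close in sequence to Aldh1a1, was at 10.94 in the Cre liver and at 11.72 and 12.18 in the control livers, a difference of -1.01 ± 0.22 (SE) that did not pass (adjusted p = 0.0620). Because these genes are so alike, a probe set of either may also read the other.

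Aldh3b1 (-0.68), Aldh1a3 (-0.43), Aldh3b2 (-0.40), Aldh18a1 (-0.29) and Aldh5a1 (0.07) did not pass. Of these, Aldh5a1, the succinic semialdehyde dehydrogenase, was the only gene above both controls, at 8.39 in the Cre liver and at 8.30 and 8.34 in the control livers, and its sign turned with quantile normalization. Aldh1a2, Aldh1l2 and Aldh3a1 were under the filter, and the probe sets of Aldh3b3 were also assigned to Aldh3b2 and not used.

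The pathways around the members were described from lists of their enzymes and carriers, chosen with earlier results of these data known. Of 85 fitted genes in all, 25 fell and 8 rose, against 5.21% lower and 6.71% higher among all fitted genes. Tryptophan breakdown, to which Aldh8a1 belongs, had 4 of 6 fitted genes lower and none higher, with a median of -0.997. Haao, which makes the precursor of 2-aminomuconic semialdehyde and of quinolinate, was at 4.42 in the Cre liver and at 11.28 and 11.15 in the control livers (-6.80 ± 0.13 SE, adjusted p = 0.00107). Kmo, which hydroxylates kynurenine upstream of it, was at 5.93 in the Cre liver and at 10.39 and 10.43 in the control livers (-4.48 ± 0.12 SE). Qprt (-1.29) and Afmid (-0.71) fell by less, while Kynu (0.07) and Tdo2 (0.34), the entry enzyme, did not pass. Acmsd, the decarboxylase that hands the substrate to Aldh8a1, had no single-gene probe set here.

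Lysine breakdown, around Aldh7a1, had 5 of 6 fitted genes lower, against 5.21% of all fitted genes, with a median of -1.67. Aadat, the aminoadipate aminotransferase that follows Aldh7a1, was at 5.12 in the Cre liver and at 10.38 and 10.37 in the control livers (-5.25 ± 0.12 SE, adjusted p = 0.00107). Gcdh (-2.16), Pipox (-1.98), Aass, the enzyme that starts the main route (-1.37), and Dhtkd1 (-0.96) fell as well. Acat1 (0.34) did not pass. Aldh7a1 itself (-0.55) had the smallest difference of the genes that passed along this route.

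**Figure D4:**
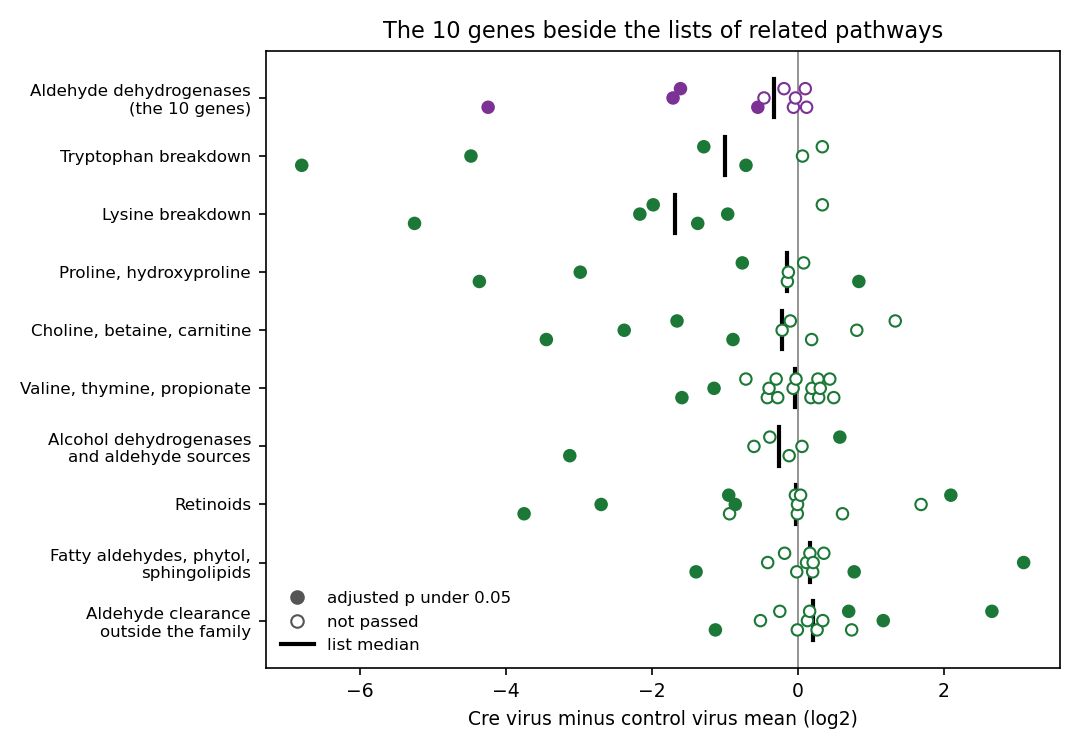
Cre minus control mean (log2) for the 10 aldehyde dehydrogenase genes (top) and for every fitted gene of 9 related pathway lists, filled where the adjusted p was under 0.05, with a bar at each median. Lysine breakdown (median -1.67) and tryptophan breakdown (-0.997) lie farthest to the left, and the clearance genes outside the family (0.22) farthest to the right.

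In proline and hydroxyproline breakdown, around Aldh4a1, 3 of 7 fitted genes fell and 1 rose, against 5.21% and 6.71% of all fitted genes. Prodh2 was at 5.19 in the Cre liver and at 9.65 and 9.45 in the control livers (-4.36 ± 0.15 SE, adjusted p = 0.00135), and Hoga1, which splits the last intermediate of hydroxyproline, was at -2.98. Prodh, which feeds proline itself to Aldh4a1, fell by 0.76 on the log2 scale. Glud1, the glutamate dehydrogenase, rose (0.84), and Agxt (-0.14) and Oat (-0.13) did not pass. Aldh4a1 (-0.03) thus lay between its controls, while Prodh2, Hoga1 and Prodh fell and Glud1 rose.

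Choline, betaine and carnitine synthesis, around Aldh9a1 and Aldh7a1, had 4 of 9 fitted genes lower and none higher. The shares over all fitted genes were 5.21% and 6.71%. Bbox1, the last enzyme of carnitine synthesis and the next after Aldh9a1, was at 8.65 in the Cre liver and at 10.95 and 11.11 in the control livers (-2.38 ± 0.13 SE, adjusted p = 0.00292). Sardh (-3.44), Gnmt (-1.65) and Bhmt2 (-0.89), enzymes of one-carbon and betaine metabolism, fell. Tmlhe, the first enzyme of carnitine synthesis, was at 0.81 and the carnitine carrier Slc22a5 at 1.34, and neither passed (adjusted p = 0.0576 and 0.0629). These calls were narrow, and Slc22a5 passed as higher in 4 of 9 other settings and Tmlhe in 2.

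In the list for valine, thymine and propionate, around Aldh6a1, 2 of 16 fitted genes fell, against 5.21% of all fitted genes. None rose, against 6.71%, and the median was -0.04. Those that fell were Upb1 (-1.59 ± 0.10 SE) and Dpyd (-1.15 ± 0.10 SE), enzymes of pyrimidine breakdown. Mmab (-0.71), Hibch (-0.42), Acad8 (0.44) and Pcca (0.49), of valine and propionate breakdown, did not pass.

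Among 6 fitted alcohol dehydrogenases and other sources of aldehydes, Adh4 fell and Adh1 rose, against 5.21% and 6.71% of all fitted genes. Adh4 was at 8.33 in the Cre liver and at 11.50 and 11.41 in the control livers (-3.12 ± 0.11 SE, adjusted p = 0.00136). Adh1, the main liver alcohol dehydrogenase, was at 14.08 in the Cre liver and at 13.58 and 13.42 in the control livers (0.58 ± 0.11 SE, adjusted p = 0.0452), a call lost in 3 of 9 other settings. Cat (-0.60), Adh5 (-0.38), Adh7 (-0.12) and Cyp2e1 (0.06) did not pass.

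Retinoid genes, around Aldh1a1, had 4 of 12 fitted genes lower and 1 higher, against 5.21% and 6.71% of all fitted genes. The retinol dehydrogenases Rdh16 (-3.75 ± 0.19 SE) and Rdh5 (-2.69 ± 0.15 SE) fell, as did Rdh10 (-0.94) and Rdh7 (-0.86). Rarb, a retinoic acid receptor and target, was at 6.77 in the Cre liver and at 4.60 and 4.75 in the control livers (2.10 ± 0.17 SE, adjusted p = 0.00855). Cyp26a1, which degrades retinoic acid, was at 8.82 in the Cre liver and at 7.57 and 6.68 in the control livers, a difference of 1.69 ± 0.40 (SE) that did not pass (adjusted p = 0.0736) but did in 2 of 9 other settings. Rdh11 (-0.93) did not pass.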

How the data were processed

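Liver RNA of 3 mice was labelled with biotin by a 3-prime in vitro transcription kit and read on 1 array per mouse, as the labels' protocols describe. The authors deposited 1 log2 value per probe set and array, which the submitters' processing notes credit to RMA in Partek 6.5. That the logarithm has base 2 was inferred from their range. RMA gives the arrays a common distribution, which hides a shift shared by all genes, and it compresses differences at low signal. Detection calls and probe positions were not used.

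Of 45101 probe sets, 34945 had 1 gene symbol, 932 several and 9160 none, with 64 array controls. A table of the GRCm38.p6 assembly brought 34741 of the symbols up to date through their Entrez IDs. The brightest single-gene probe set stood for each gene, and the fit kept genes whose mean reached the 30th percentile of gene means (3.77). Cre was compared with control in limma 3.58.1 (R 4.3.3, lmFit, eBayes with trend, 1 residual and 3.18 prior degrees of freedom, two-sided, Benjamini-Hochberg over 12735 genes). The fit was also run on simulated data with known changes. There the Cre array was made to vary as the controls do, so that assumption was not tested. An unadjusted p under 0.05 was found for 3977 genes. Figures used matplotlib 3.10.9 in Python 3.11.15.

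The members, gene lists and tests were chosen with earlier results of these data known. The text names all members, the other family genes and the 6 fitted genes of each pathway list with the largest absolute change, and allowed any other list member to be named to describe its list, as with Rdh7. Promoters came from a RefSeq table that held 8 of the 10 members. Alternatives covered moderation, filters, scaling, choice of probe sets and each control left out.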

Additional observations from a re-analysis of the deposited data

How the results depend on the processing

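Of the 4 genes that fell, Aldh8a1, Aldh16a1 and Aldh1b1 kept their call in all 9 tested settings, with adjusted p up to 0.00353, 0.0154 and 0.0327. Aldh7a1 lost it without the intensity trend (adjusted p = 0.101), without a filter (0.0716), as the mean of its probe sets (0.113; -0.44) and without _s_at, _x_at and _a_at probe sets (0.0616), so 3 members fell in those settings. No member rose in any setting. Against single controls, where no residual spread is left and no test exists, 3 members were at least 2-fold lower either way. Aldh1a1, Aldh3a2, Aldh4a1 and Aldh9a1, none of which passed, changed sign with the control left out. Aldh9a1 had no probe set without those suffixes and gave no value there. The sign of Aldh5a1 turned with quantile normalization (-0.0095) and that of Adh7 with the mean of probe sets (0.038); neither passed.

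Among other family genes, 2 fell with robust moderation, median centring or quantile normalization, when Aldh1a7 passed too, and 1 to 2 were at least 2-fold lower with a control left out. Across pathway lists, 8 rose, but 4 without trend, 4 without a filter and 5 without mixed probe sets. Over all genes, 855 rose, but 446 without a filter and 471 without mixed probe sets, and 663 fell, but 1007 with quantile normalization. Of 19 member probe sets 5 fell, but 3 without a filter, where Aldh1b1 (adjusted p = 0.0850) and 1447372_at of Aldh16a1 (0.0505) missed; Aldh1b1 also missed without trend (0.0577). Hnf4a probe set 1421983_s_at (-1.18, adjusted p = 0.0364) missed without a filter (0.0789) and without trend (0.0578). The brightest, 1427001_s_at, which had not passed over probe sets (0.0644), was at 0.123 and 0.160 in those settings. The causes were not tested. Of the 54 pathway genes chosen by absolute change, 32 passed, against 5.21% lower and 6.71% higher among all fitted genes. Choosing by size of change favours passing, so the 32 describe these genes only. Of the 32, 23 passed in every tested setting. The 9 that lost the call in at least 1 were Adh1, Afmid, Aox1, Bhmt2, Cyp4a14, Glud1, Prodh, Rdh10 and Sgpl1. Another 8 gained a call in at least 1, namely Slc22a5, Tmlhe, Cyp26a1 and Tdo2 as higher and Aox3, Cat, Adh5 and Mmab as lower. No paired analysis was possible because the Cre group has 1 array. The number of arrays limits precision, and signal over background was not recorded in the values used here.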

Other observations

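Among genes that clear aldehydes but are not aldehyde dehydrogenases, 3 of 12 fitted genes rose and 1 fell, with a median of 0.22. The shares over all fitted genes were 6.71% and 5.21%. Ptgr1, which reduces unsaturated aldehydes and prostaglandin products, was at 8.62 in the Cre liver and at 6.09 and 5.82 in the control livers (2.66 ± 0.18 SE, adjusted p = 0.00564). Cbr1, a carbonyl reductase, was at 10.42 in the Cre liver and at 9.29 and 9.20 in the control livers (1.17 ± 0.12 SE, adjusted p = 0.0135). Aox1, an aldehyde oxidase, rose by less (0.70, adjusted p = 0.0395, lost in 3 of 9 other settings), while Aox3 (-0.51), of the same family, and Cbr3 (0.74) did not pass. Akr7a5, an aldehyde reductase, was at 10.23 in the Cre liver and at 11.44 and 11.27 in the control livers, and fell (-1.13 ± 0.12 SE, adjusted p = 0.0157). The median of this list is above that of all fitted genes (0.09), and whether the lists differ was not tested.

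Fatty aldehyde, phytol and sphingolipid genes, around Aldh3a2, had 2 of 11 fitted genes higher and 1 lower. Over all fitted genes 6.71% rose and 5.21% fell. Cyp4a14, a fatty acid omega-hydroxylase, was at 11.17 in the Cre liver and at 7.57 and 8.58 in the control livers (3.10 ± 0.44 SE, adjusted p = 0.0275). The controls differed by about 1 log2 unit in this gene, so its size depends on the control used. Sgpl1, the sphingosine phosphate lyase whose aldehyde product Aldh3a2 oxidises, was at 7.49 in the Cre liver and at 6.71 and 6.73 in the control livers (0.77 ± 0.14 SE, adjusted p = 0.0447), and its call was lost in 4 of 9 other settings. Pecr, a peroxisomal enoyl-CoA reductase, fell (-1.39 ± 0.10 SE), and Cyp4f14 (-0.41), Far1 (0.36) and Phyh (0.21) did not pass.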
